A study of Mus musculus with 6 samples.

Results

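The SNARE genes encode the small, mostly membrane-anchored proteins that fuse transport vesicles with their target membranes. They were taken from a list of 34 symbols and read from array probe sets annotated to 1 gene alone. All 34 had such a probe set, 85 in all, among 18193 genes, and 32 had a mean signal high enough to be tested among 14222 genes. Snap25 and Vamp1 did not. Bladder epithelium of mice at postnatal day 7 had been digested to single cells, and RNA of 3 DsRed-positive and 3 DsRed-negative samples, numbered 1, 2 and 5 in each group, was amplified in 2 rounds and measured on Affymetrix Mouse Genome 430 2.0 arrays. Samples of both groups carried the same labels for allele, B6;129P-Upk1btm1Zhang/J at the uroplakin gene Upk1b, were all labelled male and of FVB/N x C57BL/6 background, and were named bladder epithelial cells, with none pooled. The labels do not say what drives DsRed, how many copies of the allele the mice carried, or how cells with and without DsRed were parted. Whether each sample is a mouse of its own is not stated, so the error behind every p-value is the scatter among these arrays and may be technical.

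A vesicle carries an R-SNARE, most often a VAMP protein, and the target membrane carries Q-SNAREs of the Qa (syntaxin), Qb and Qc kinds, where a Qbc protein such as SNAP-23 supplies both the Qb and the Qc part. A helix of each kind zips into a bundle that pulls both membranes together, and different sets serve the endoplasmic reticulum, Golgi, endosomes, lysosomes and plasma membrane. In the umbrella cells that line the bladder, flattened vesicles bring uroplakin plaques to the apical membrane, and Stx11, Snap23 and Vamp8 have been described at that step.

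Upk1b, the gene of the labelled allele, had a normalized log2 signal of 16.62 ± 0.12 in DsRed-positive and 12.35 ± 0.88 in DsRed-negative arrays (SD, n = 3 each). All 8 urothelial markers rose, with deposited signals that summed to 205996 to 317799 in DsRed-positive and 12937 to 30027 in DsRed-negative arrays. Although the DsRed-negative samples are labelled bladder epithelial cells too, fibroblast markers, all 6 of which fell, summed to 10198 to 20365 in DsRed-positive and 451081 to 1038257 in DsRed-negative arrays. Smooth muscle markers summed to 1950 to 2830 in DsRed-positive and 96641 to 187415 in DsRed-negative arrays, and leukocyte markers to 665 to 1430 in DsRed-positive and 18122 to 30592 in DsRed-negative arrays. Endothelial markers summed to 944 to 1017 in DsRed-positive and 6979 to 11718 in DsRed-negative arrays, mast cell markers to 281 to 512 in DsRed-positive and 19631 to 28657 in DsRed-negative arrays, and Schwann cell markers, none of which passed by limma (0 with an unadjusted p under 0.05), to 333 to 624 in DsRed-positive and 780 to 952 in DsRed-negative arrays. Single genes gave most of 2 sums in DsRed-negative arrays 1, 2 and 5. Acta2 had 85444, 165995 and 163027 of the smooth muscle signal, and Cpa3 had 16681, 23756 and 13848 of the mast cell signal. Not every marker fell, since Des, Kdr, Cd68, Kit and Tpsb2 did not pass. In such bulk samples, fewer cells of a type and less RNA per cell cannot be told apart. Both arrays numbered 1 went against their label of male sex, since Xist, the RNA of the inactive X chromosome, had 28183, 227 and 203 in DsRed-positive arrays, against 45699, 546 and 346 in DsRed-negative arrays numbered 1, 2 and 5. Results are therefore also given without both arrays numbered 1, for partner genes as counts alone. Arrays correlated at 0.921 to 0.940 within the DsRed-positive group and at 0.845 to 0.892 within the DsRed-negative group, and no 2 arrays held identical values. With the DsRed-positive arrays, DsRed-negative 1 correlated at 0.752 to 0.766, and DsRed-negative 2 and 5 at 0.674 to 0.716. DsRed-negative 1 also had the highest urothelial sum of its group, 30027 against 16681 and 12937, and the reason was not tested.

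Of the 32 SNARE genes tested, 27 did not pass the test between cells with and without DsRed. Stx19, Vamp5 and Vti1b rose in DsRed-positive cells, and Stx2 and Sec22b fell. Thus 9.38% of the tested members rose, beside 9.21% of all 14222 genes, and 6.25% fell, beside 11.3% of all genes, at an adjusted p under 0.05 by limma. In either direction 5 of the 32 passed, beside 20.5% of all genes. Read from 1 probe set a gene, the brightest, these shares are near or below those of all genes. These counts thus do not set the SNARE genes apart, and counts over all probe sets are given below. Groups did not overlap, with DsRed-positive higher, for 5 members, where 22.0% of all genes did so, and with DsRed-positive lower for 4 members, where 21.4% did. The median log2 change, DsRed-positive minus DsRed-negative, was 0.23 over the members and 0.035 over all genes, and the median size of the change was 0.61 and 0.72. Before adjustment, 10 members had a p under 0.05, where 35.2% of all genes had one.

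The balance of directions depended on scaling. With each array centred on its median instead of quantile normalized, 8 of 32 members rose (Stx11, Stx12, Vti1a, Gosr1 and Vamp8 besides the 3) and 1 fell, Stx2. This scaling put the median change of all genes at 0.37 and that of the members at 0.68. Of 14235 genes, 2558 rose and 1402 fell, against 1310 and 1603 of 14222 with quantile normalization. With the values as deposited, 4 of 32 members rose, the fourth being Stx12, and 2 fell, where 1229 of 14235 genes rose and 2044 fell. The median change was then -0.17 over all genes and 0.14 over the members. Without both arrays numbered 1, Stx19 and Vamp5 were called higher and Stx1a was the 1 member called lower. In that fit 497 of 14267 genes rose and 783 fell. The count of members that fell was also 1 without DsRed-positive 1, 2 or 5 and without DsRed-negative 2, where 1082 to 1478 of all genes fell.

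**Figure D1:**
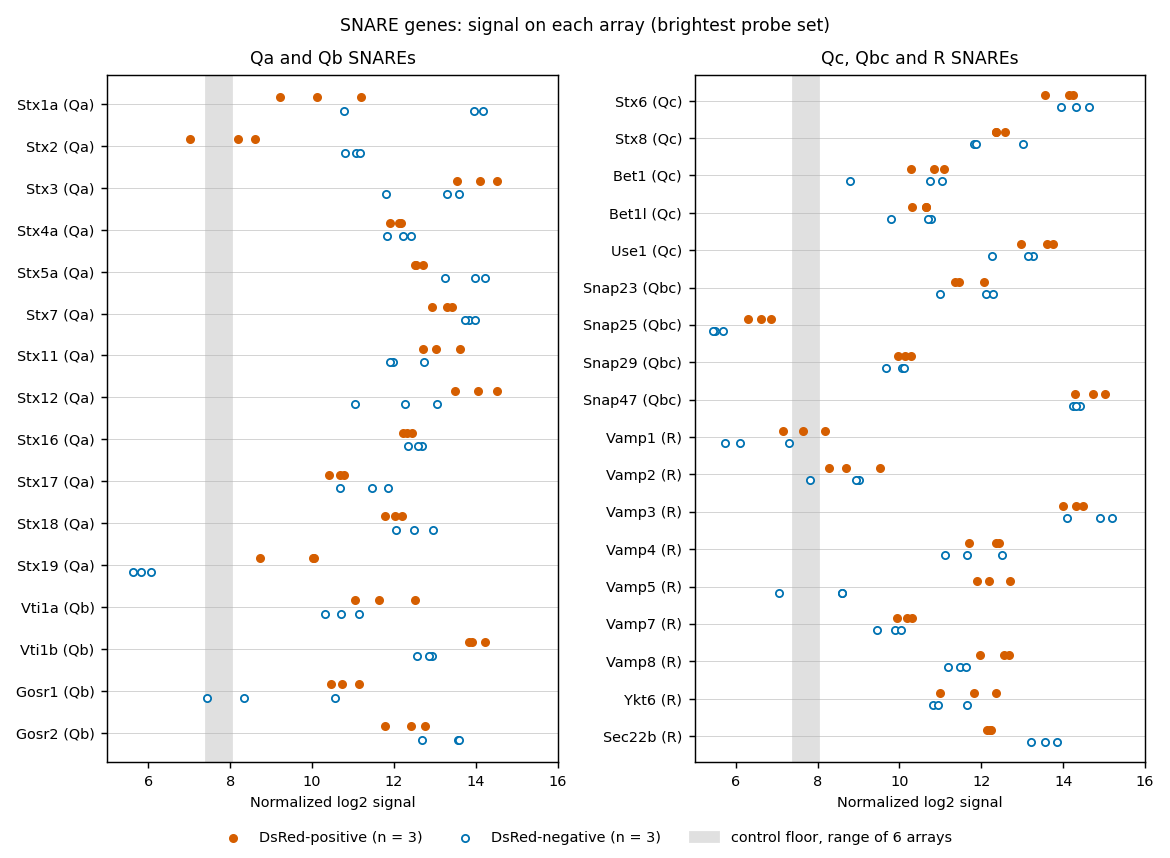
Normalized log2 signal of the brightest probe set of all 34 SNARE genes on each array, for DsRed-positive arrays (n = 3) and DsRed-negative arrays (n = 3). The grey band spans the level of unspiked control probe sets on the 6 arrays. Stx19 and Vamp5 stand far to the right in DsRed-positive arrays and Stx2 in DsRed-negative arrays, while most other rows overlap.

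Promoter windows are shown for the 3 members with the largest called changes. Each runs from 250 bases before to 50 bases after a RefSeq start on GRCm38.p6, 5′ to 3′ on the gene's strand. Capitals mark the E-box CAGGTG and the GC box GGGGCGG on either strand. The Stx19 window is chr16:62814426-62814725 on the plus strand, the Vamp5 window chr6:72380419-72380718 on the minus strand, and the Stx2 window chr5:129008523-129008822 on the minus strand, 1 of 2 listed for Stx2.
Stx19: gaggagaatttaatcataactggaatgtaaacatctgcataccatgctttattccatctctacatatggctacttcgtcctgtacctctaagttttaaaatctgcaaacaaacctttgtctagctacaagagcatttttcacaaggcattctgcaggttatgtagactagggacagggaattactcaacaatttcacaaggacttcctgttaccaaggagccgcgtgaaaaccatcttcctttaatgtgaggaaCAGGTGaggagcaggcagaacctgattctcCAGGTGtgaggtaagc
Vamp5: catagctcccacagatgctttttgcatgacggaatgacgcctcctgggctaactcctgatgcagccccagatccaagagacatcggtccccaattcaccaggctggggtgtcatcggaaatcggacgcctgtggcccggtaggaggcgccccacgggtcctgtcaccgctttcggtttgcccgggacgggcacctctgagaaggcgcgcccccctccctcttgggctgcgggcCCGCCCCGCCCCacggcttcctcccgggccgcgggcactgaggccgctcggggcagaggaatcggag
Stx2: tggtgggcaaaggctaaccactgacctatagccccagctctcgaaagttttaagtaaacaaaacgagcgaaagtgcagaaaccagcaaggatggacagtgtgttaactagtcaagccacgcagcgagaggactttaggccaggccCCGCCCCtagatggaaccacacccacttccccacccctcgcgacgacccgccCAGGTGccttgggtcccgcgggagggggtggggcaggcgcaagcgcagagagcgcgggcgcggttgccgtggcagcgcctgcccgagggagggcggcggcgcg

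The Stx19 window held 3 CpG dinucleotides, and the printed windows of Vamp5 and Stx2 held 25 each. The second Stx2 window, chr5:128990187-128990486 on the minus strand, held 2 CpG dinucleotides, no E-box and no GC box, and TATAAA stood in it 2 times, so the starts of Stx2 alone span this range. The median was 18 over the 37 windows that matched 30 of the 34 members and 7 over all 32851 windows. Stx19 also held 2 E-boxes, which begin 5 and 35 bases after the start, and 2.88% of all windows held 2 or more. The window of Snap29, which did not pass on its brightest probe set, held 2 as well. At least 1 E-box stood in 7 of the 37 member windows and in 20.2% of all windows. The GC box, present as 2 overlapping copies before the Vamp5 start, stood in 12 of the member windows and in 23.2% of all. The other motifs searched, on both strands, were the Grainyhead motif AACCNGTT in 2.09% of all windows, the GATA-factor motif AGATAA in 11.2%, the TATA-box motif TATAAA in 13.6%, the nuclear receptor half-site AGGTCA in 16.3% and the ETS motif CCGGAAG in 8.86%. None of these 5 was in the Stx19 or the Vamp5 window. Such letters are a description and say nothing of a factor's binding.

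Among the 12 Qa syntaxins 1 rose, 1 fell and 10 did not pass. Stx19, an atypical syntaxin without a membrane-spanning anchor, had a deposited signal of 972, 314 and 1003 in DsRed-positive arrays, against 19.96, 37.8 and 12.4 in DsRed-negative arrays numbered 1, 2 and 5, the order kept below. The groups lay far apart, and all 3 DsRed-negative values were at or below the control level, set for each array by its 27 unspiked control probe sets at their 95th percentile. On the log2 scale Stx19 was 9.60 ± 0.76 in DsRed-positive and 5.84 ± 0.22 in DsRed-negative arrays (SD, n = 3 each), a change of 3.75 ± 0.45 (SE, adjusted p = 0.00135 by limma). Since the low group was not above the control level, the rise is given as at least 3.45-fold. The p-values of Stx19 compare the values as measured, not this bound. The DsRed-negative mean of Stx19 lay below the cut-off of 7.18 for testing, so it was tested only through its DsRed-positive signal. Its adjusted p was at most 0.0392 in the 17 alternatives that tested it, the highest being without both arrays numbered 1 (a change of 3.54). In RefSeq the gene overlaps Arl13b, whose own signal was not analysed here.

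Stx2, or epimorphin, is a syntaxin of the plasma membrane that has also been described as a factor of mesenchymal cells acting on epithelium. Its signal was 191, 68.3 and 314 in DsRed-positive arrays, against 2085, 2241 and 1743 in DsRed-negative arrays. The DsRed-negative values lay close together, and DsRed-positive 2 was below its control level. The log2 means were 7.94 ± 0.81 in DsRed-positive and 11.02 ± 0.19 in DsRed-negative arrays (SD, n = 3 each), a change of -3.08 ± 0.46 (SE, adjusted p = 0.00375), or 8.45-fold higher in DsRed-negative cells. The call was lost in 1 of 18 alternatives, without both arrays numbered 1, where the change was -3.14 (adjusted p = 0.0657). All 6 fibroblast markers and 4 of the 5 tested smooth muscle markers fell in the same arrays, and their part in the result was not tested. Of these, Actg2 was tested only through its DsRed-negative signal.

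Stx1a, the plasma membrane syntaxin of neurons and endocrine cells, was uneven within the DsRed-negative group. Its signal was 475, 974 and 2308 in DsRed-positive arrays, against 1709, 15654 and 18349 in DsRed-negative arrays. DsRed-negative 1 lay within the range of the DsRed-positive arrays. The change of -2.80 ± 0.94 (SE) did not pass (adjusted p = 0.0850), but it passed without DsRed-negative 1 (-3.90, adjusted p = 0.00919) and without both arrays numbered 1 (-3.44, adjusted p = 0.0320). Its probe set carries the suffix _x_at, which marks probes that may match other transcripts, and the other Stx1a probe set gave -0.61 (adjusted p = 0.215).

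Stx3, the syntaxin of the apical membrane in polarised epithelia, had 20988, 18518 and 12023 in DsRed-positive arrays, against 12304, 9390 and 3392 in DsRed-negative arrays on its brightest probe set. DsRed-positive 5 lay just under DsRed-negative 1, and the change of 1.15 ± 0.54 did not pass (adjusted p = 0.192). Of its 3 dimmer probe sets, 2 were called higher, at 1.84 (adjusted p = 0.0330) and 2.10 (adjusted p = 0.0146), and the mean of all 4 was called too (1.45, adjusted p = 0.0245). Stx4a, its counterpart at the basolateral membrane, had 4132, 4672 and 4500 in DsRed-positive arrays, against 5295, 3400 and 4553 in DsRed-negative arrays. There the DsRed-positive values lay inside the DsRed-negative range, with a change of -0.090 ± 0.33 (SE) that became 0.57 with arrays centred on their medians.

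Stx11, a syntaxin without a membrane-spanning segment that serves the secretory granules of human lymphocytes, had 8870, 13099 and 6795 in DsRed-positive arrays, against 3901, 6354 and 3613 in DsRed-negative arrays. Every DsRed-positive signal was above every DsRed-negative one as deposited, but the groups overlapped after normalization, and the change was 0.91 ± 0.40 (SE, adjusted p = 0.169). The other Stx11 probe set was called higher (1.47, adjusted p = 0.0346). Stx12, a syntaxin of recycling endosomes, had 20855, 11981 and 17343 in DsRed-positive arrays, against 8237, 4593 and 2046 in DsRed-negative arrays. Its groups did not overlap, and the change of 1.89 ± 0.56 just missed the threshold (adjusted p = 0.0571). It was called in 6 of 18 alternatives, among them that without DsRed-negative 1 (2.35, adjusted p = 0.0312). A second Stx12 probe set gave 0.58 and was not called.

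The remaining Qa syntaxins act inside the cell. Stx5a, which serves transport between the endoplasmic reticulum and the Golgi, had 6368, 6062 and 6802 in DsRed-positive arrays, against 9450, 15984 and 19063 in DsRed-negative arrays. All DsRed-positive values were lower, yet the change of -1.22 ± 0.37 did not pass (adjusted p = 0.0602), and without DsRed-negative 1 it did (-1.50, adjusted p = 0.0317). Stx7 of late endosomes (-0.64), Stx16 of the trans-Golgi network (-0.21), Stx17 of autophagosomes (-0.70) and Stx18 of the endoplasmic reticulum (-0.49) did not pass in any alternative. The 4 probe sets of Stx17 ran from -1.13 to 2.30 and the 5 of Stx18 from -0.59 to 0.73, with none called. The brightest of Stx18 carries the suffix _x_at.

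Of the 4 Qb members 1 rose and 3 did not pass. Vti1b, a SNARE of late endosomes and lysosomes, had 18071, 16083 and 14876 in DsRed-positive arrays, against 5880, 7334 and 7025 in DsRed-negative arrays. The values were tight within both groups and did not overlap, and the change was 1.20 ± 0.32 (SE), or 2.30-fold (adjusted p = 0.0401). No fit without 1 array called it (adjusted p of 0.0553 to 0.139), nor did that without both arrays numbered 1 (1.01, adjusted p = 0.223). In RefSeq, Vti1b overlaps Arg2, an arginase gene, which also rose (3.82, adjusted p = 0.00118), and whether Arg2 transcripts reach the Vti1b probe set was not tested.

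Vti1a, its relative at the trans-Golgi network, had 3464, 2026 and 5873 in DsRed-positive arrays, against 1234, 2208 and 1626 in DsRed-negative arrays. The lowest DsRed-positive value lay within the DsRed-negative range, and the change was 1.02 ± 0.46 (adjusted p = 0.179). The 5 probe sets of Vti1a ran from -0.37 to 1.30, with none called. Gosr1, a Golgi SNARE, had 1368, 1566 and 2261 in DsRed-positive arrays, against 323, 180.1 and 1494 in DsRed-negative arrays. DsRed-negative 5 alone reached the DsRed-positive range, and the change of 2.00 ± 0.76 (SE, adjusted p = 0.115) became 2.94 (adjusted p = 0.00849) without that array. A second Gosr1 probe set gave -0.067. For Gosr2, another Golgi SNARE, the change was -0.97 ± 0.42 (adjusted p = 0.165), and its other probe set gave 0.53.

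None of the 5 Qc members passed by limma, and 0 had an unadjusted p under 0.05. Their changes were -0.32 for Stx6 of the trans-Golgi network, 0.20 for Stx8 of late endosomes, 0.54 and 0.11 for Bet1 and Bet1l of transport to and within the Golgi, and 0.56 for Use1 of retrieval to the endoplasmic reticulum. In all 5 the groups overlapped. Stx6, for one, had 18132, 12578 and 18230 in DsRed-positive arrays, against 20136, 15396 and 26885 in DsRed-negative arrays. That probe set carries the suffix _x_at, and the 6 probe sets of Stx6 ran from -0.32 to 1.17, with none called. A dimmer probe set of Bet1l was called lower (-1.72, adjusted p = 0.0390), while its brightest had 1608, 1472 and 1213 in DsRed-positive arrays, against 871, 1744 and 1627 in DsRed-negative arrays.

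Among Qbc members none of the 3 tested passed on the brightest probe set by limma, 0 had an unadjusted p under 0.05, and all 3 had a dimmer probe set that was called higher. Snap23, the broadly expressed partner of plasma membrane syntaxins, had 4601, 2563 and 2835 in DsRed-positive arrays, against 4274, 4599 and 1978 in DsRed-negative arrays. The groups overlapped, with a change of -0.17 ± 0.44. A dimmer Snap23 probe set had 4136, 3036 and 5184 in DsRed-positive arrays, against 1151, 1672 and 1176 in DsRed-negative arrays, without overlap, and was called higher (1.57 ± 0.36, adjusted p = 0.0225), and the third gave -0.45. The direction for Snap23 hangs on the probe set, and on the brightest one it turned to 0.47 with arrays centred on their medians.

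Snap29, a SNARE of endosomes and autophagosomes, had 1188, 862 and 1069 in DsRed-positive arrays, against 1048, 1145 and 837 in DsRed-negative arrays on its brightest probe set (0.17 ± 0.32). Its other 2 probe sets were called higher, at 1.78 (adjusted p = 0.0134) and 1.33 (adjusted p = 0.0443). Snap47, a relative without a fixed place in transport, had 18626, 34054 and 27174 in DsRed-positive arrays, against 21790, 19345 and 20477 in DsRed-negative arrays on a probe set with the suffix _x_at (0.36 ± 0.34). Its other probe set had 3295, 3799 and 2063 in DsRed-positive arrays, against 692, 839 and 883 in DsRed-negative arrays and was called higher (1.90 ± 0.36, adjusted p = 0.0102). Averaged over their probe sets, both genes were called higher, Snap29 at 1.10 (adjusted p = 0.0226) and Snap47 at 1.13 (adjusted p = 0.0241).

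Snap25, the Qbc SNARE of synapses, had 30.3, 43.8 and 61.3 in DsRed-positive arrays, against 5.93, 6.25 and 15.4 in DsRed-negative arrays. All 6 values were at or below the control level, and no fold is given. Vamp1, a synaptic R-SNARE, was at or below that level in all DsRed-negative arrays and in 1 DsRed-positive array, with 118, 76.7 and 225 in DsRed-positive arrays, against 36.5, 19.7 and 145 in DsRed-negative arrays. Vamp2, its close relative, had 624, 311 and 242 in DsRed-positive arrays, against 518, 561 and 223 in DsRed-negative arrays. Those groups overlapped (0.26 ± 0.49). Of the neuronal markers, 1 of 7 tested rose, Uchl1 (4.93, adjusted p = 1.87e-04), and Tubb3 was at or below the control level on all 6 arrays. The list's signals summed to 11288 to 15565 in DsRed-positive and 2234 to 3503 in DsRed-negative arrays, but Uchl1 alone had 10190, 13437 and 10988 in DsRed-positive arrays, against 417, 295 and 476 in DsRed-negative arrays. Without Uchl1 the other 7 markers summed to 1098 to 2128 in DsRed-positive and 1758 to 3208 in DsRed-negative arrays, and the median change of the 7 tested, Uchl1 included, was -0.11. The part of these markers in the results was not tested.

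Of the 9 R-SNAREs, 8 were tested, of which 1 rose, 1 fell and 6 did not pass. Vamp5, a VAMP protein described in muscle cells, gave the largest change of the 32 members on the brightest probe sets. Its signal was 4107, 6805 and 4707 in DsRed-positive arrays, against 389.8, 125 and 409 in DsRed-negative arrays. No array came near the other group, and DsRed-negative 2 was below its control level. The log2 means were 12.26 ± 0.41 in DsRed-positive and 8.09 ± 0.88 in DsRed-negative arrays (SD, n = 3 each), a change of 4.17 ± 0.51 (SE), or 18.0-fold (adjusted p = 0.00147).

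The call for Vamp5 was kept in all 18 alternatives, with adjusted p up to 0.0291, the highest without both arrays numbered 1 (a change of 4.56). A second, dimmer Vamp5 probe set did not share the rise and had 198, 258 and 381 in DsRed-positive arrays, against 802, 492 and 666 in DsRed-negative arrays. Its change was -0.72 ± 0.38 (SE, adjusted p = 0.239), and the mean of both probe sets gave 1.72 (adjusted p = 0.0146). Urothelial markers rose in the same arrays, all 8 of 8, and their part in the rises of Vamp5, Stx19 and Vti1b was not tested.

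Vamp8, the R-SNARE of regulated secretion in many epithelia, is the neighbour of Vamp5 in the RefSeq gene order. It had 4366, 6678 and 6112 in DsRed-positive arrays, against 2745, 2270 and 2985 in DsRed-negative arrays. The groups did not overlap, but the change of 0.97 ± 0.35 (SE) did not pass (adjusted p = 0.101), and it passed in 1 of 18 alternatives, median centring (1.61, adjusted p = 0.0158). On the far side of Vamp5, Rnf181 rose (1.92, adjusted p = 0.0107) and Tmem150a fell (-2.45, adjusted p = 0.0114), so the genes around Vamp5 did not share 1 direction.

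Sec22b, a SNARE of transport between the endoplasmic reticulum and the Golgi, had 4905, 4757 and 4863 in DsRed-positive arrays, against 14582, 11316 and 9150 in DsRed-negative arrays. The DsRed-positive values were nearly equal and all lower, and the change was -1.35 ± 0.33 (SE), or 2.55-fold higher in DsRed-negative cells (adjusted p = 0.0288). Its other probe set overlapped between groups and gave -0.22. Of 6 fits that left out 1 array, 5 lost the call (the highest adjusted p, 0.103, came without DsRed-positive 1), and it was kept without DsRed-negative 5 (adjusted p = 0.0337). With arrays centred on their medians the change was -0.70 (adjusted p = 0.193), and without both arrays numbered 1 it was -1.19 (adjusted p = 0.181). The fibroblast and smooth muscle markers fell here as beside Stx2.

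The other R-SNAREs did not pass on the brightest probe set. Vamp3, or cellubrevin, of recycling endosomes had 15790, 21406 and 22673 in DsRed-positive arrays, against 38346, 32125 and 17307 in DsRed-negative arrays. DsRed-negative 5 lay within the DsRed-positive range (-0.47 ± 0.40). That probe set carries the suffix _x_at, and the 5 probe sets of Vamp3 ran from -1.46 to 0.61. Vamp4 of the trans-Golgi network had 5714, 3277 and 5544 in DsRed-positive arrays, against 5667, 3023 and 2121 in DsRed-negative arrays. These overlapped as well (0.40 ± 0.45). In each of these genes 1 dimmer probe set was called lower, at -1.46 (adjusted p = 0.0301) for Vamp3 and -1.58 (adjusted p = 0.0214) for Vamp4. Vamp7 of lysosomes had a change of 0.35 ± 0.33, and Ykt6, a lipid-anchored SNARE, of 0.58 ± 0.46.

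**Figure D2:**
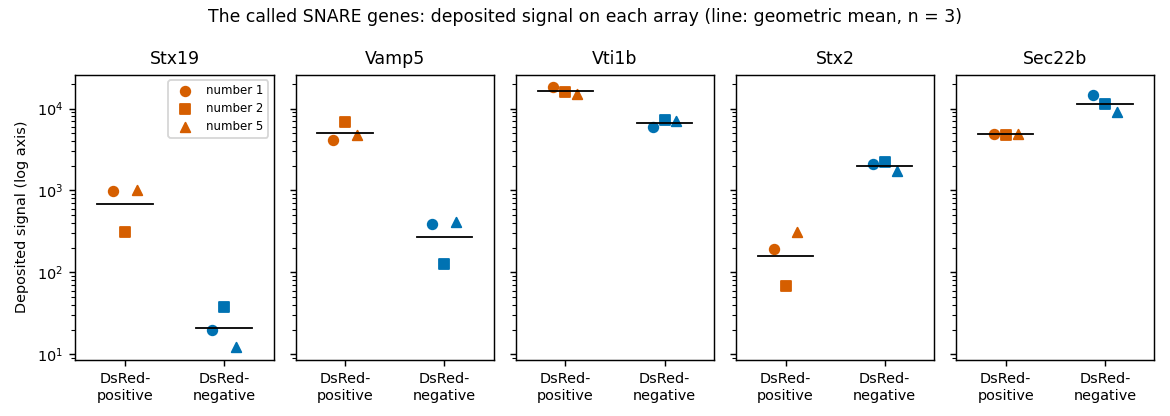
Deposited signal (log axis) of the 5 SNARE genes called at an adjusted p under 0.05, on each array, with DsRed-positive arrays left of DsRed-negative arrays (n = 3 each). In each panel all 3 arrays of one group lie above all 3 of the other, with the widest gaps for Stx19 and Vamp5.

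Probe sets of the same gene often gave different answers. Of the 76 member probe sets tested, 10 were called higher and 5 lower, where 8.63% of all 30175 probe sets were called higher and 8.62% lower. Counting a gene by any of its probe sets, 8 of 32 members were called higher (Stx3, Stx11, Snap23, Snap29 and Snap47 besides the 3), where 13.0% of all genes were. On the same count 5 were called lower (Bet1l, Vamp3 and Vamp4 besides the 2), where 12.5% were. In either direction 13 of 32 members (40.6%) were called, where 25.4% of all genes were. No member had probe sets called in both directions, and 11 of all genes did. Genes with more probe sets have more chances of a call, and 7 members had a single one, Stx19, Stx2 and Vti1b among them.

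**Figure D3:**
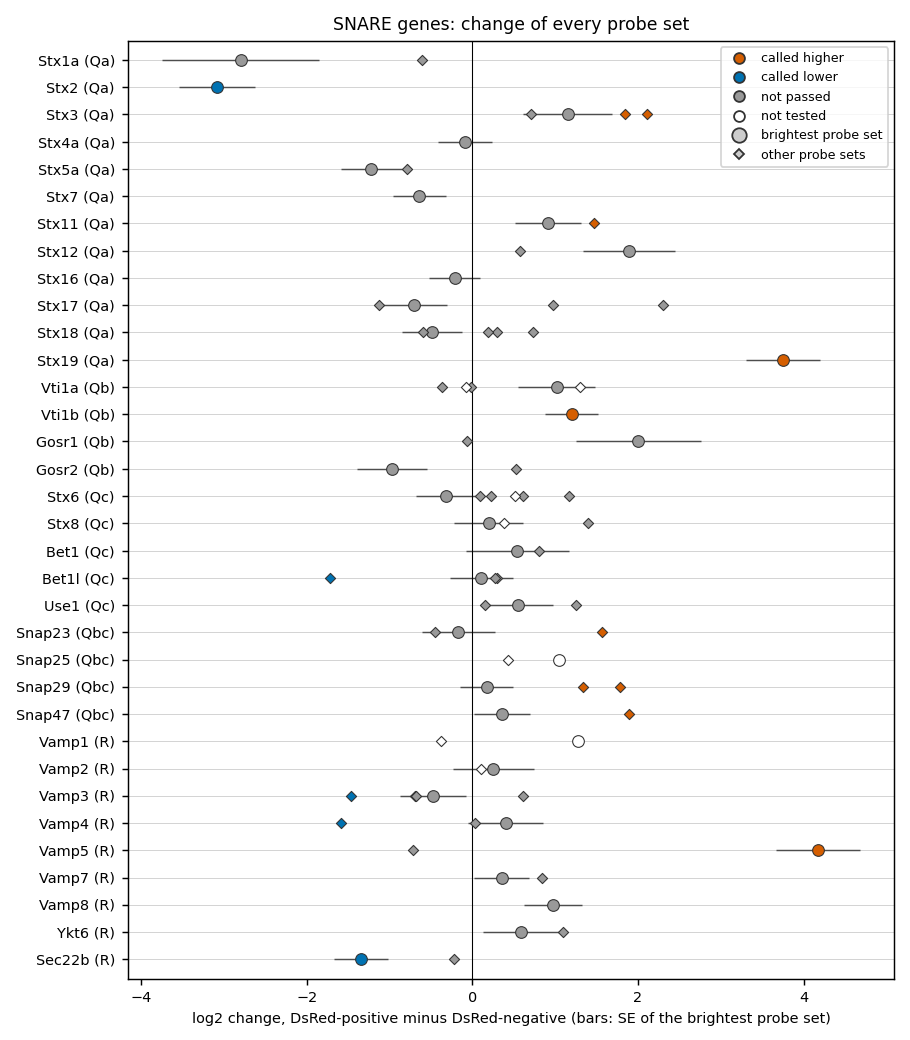
Change in log2 signal, DsRed-positive minus DsRed-negative, of all 85 probe sets of the 34 SNARE genes, with larger symbols for the brightest probe set of a gene (bars, SE) and smaller ones for the others, coloured by the limma call. For Snap23, Snap29 and Snap47 the brightest probe set lies near 0 and a dimmer one is called higher, and for Vamp5 the dimmer one lies left of 0.

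Proteins that act on SNAREs were read from 4 further lists with 79 genes, of which 75 had a probe set and 70 were tested. Of these, 4 rose (5.71%, beside 9.21% of all genes) and 3 fell (4.29%, beside 11.3%), with a median change of 0.014. Each partner call rests on the brightest probe set alone, and the other probe sets of partners were not read singly. Without DsRed-positive 1, or without DsRed-positive 2, 1 partner rose, where 608 of 14299 and 672 of 14221 genes did. At most 1 of the 4 rises thus kept its call in each of these fits. The partner values below are from all 6 arrays. Without both arrays numbered 1, 3 partners rose and 2 fell, where 497 of 14267 genes rose and 783 fell.

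Among 18 tested Sec1/Munc18 proteins and disassembly factors 1 rose and 1 fell. Stxbp3, a Sec1/Munc18 protein that binds plasma membrane syntaxins, had 13639, 7741 and 7370 in DsRed-positive arrays, against 3432, 1598 and 1352 in DsRed-negative arrays, without overlap, and rose (2.20 ± 0.48, adjusted p = 0.0192). Txlna, a syntaxin-binding taxilin, had 1799, 1136 and 1338 in DsRed-positive arrays, against 3831, 3558 and 2794 in DsRed-negative arrays and fell (-1.28 ± 0.33, adjusted p = 0.0365). Stxbp2, the Sec1/Munc18 partner of Stx11 in humans, was named for its role after its value was seen, and did not pass (0.59, adjusted p = 0.333).

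Of 25 tested calcium sensors, complexins and priming factors 2 rose and 2 fell. The synaptotagmin Syt16 had 5150, 5238 and 6013 in DsRed-positive arrays, against 267, 77.5 and 89.9 in DsRed-negative arrays, a change of 5.18 ± 0.45 (SE, adjusted p = 3.65e-04). Syt8, another synaptotagmin, had 4222, 4202 and 2854 in DsRed-positive arrays, against 980.0, 156 and 166 in DsRed-negative arrays, a change of 3.58 ± 0.71 (adjusted p = 0.0128). In both genes DsRed-negative 2 and 5 lay at or below their control level and DsRed-negative 1 above it. The DsRed-negative mean of Syt16 lay just below the cut-off for testing, so Syt16 was tested only through its DsRed-positive signal.

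Syt7, a calcium sensor of lysosome exocytosis, had 13.3, 37.5 and 41.9 in DsRed-positive arrays, against 502, 547 and 878 in DsRed-negative arrays. All DsRed-positive values were at or below the control level, so it was at least 3.26-fold lower (adjusted p = 0.00243). Cadps, which primes dense-core vesicles of neurons and endocrine cells, had 2.77, 50.9 and 6.73 in DsRed-positive arrays, against 3263, 2333 and 3337 in DsRed-negative arrays, and for the same reason was at least 17.1-fold lower (adjusted p = 2.41e-04). The p-values of Syt7 and Cadps compare the values as measured, not these bounds, and both genes were tested only through their DsRed-negative signal. Of the mast cell markers 2 of 4 tested fell, and of the leukocyte markers 4 of 5, and their part in these falls was not tested. Among those that fell, Cpa3, Cma1 and Ptprc were likewise tested only through their DsRed-negative signal.

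Among 24 vesicle tethers 1 rose, Exoc6, a subunit of the exocyst that holds vesicles at the plasma membrane. It had 7391, 6613 and 9418 in DsRed-positive arrays, against 2974, 1436 and 2289 in DsRed-negative arrays, without overlap (1.77 ± 0.40, adjusted p = 0.0219). None of the 3 tested among the other SNARE and longin genes passed by limma, and 0 had an unadjusted p under 0.05.

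**Figure D4:**
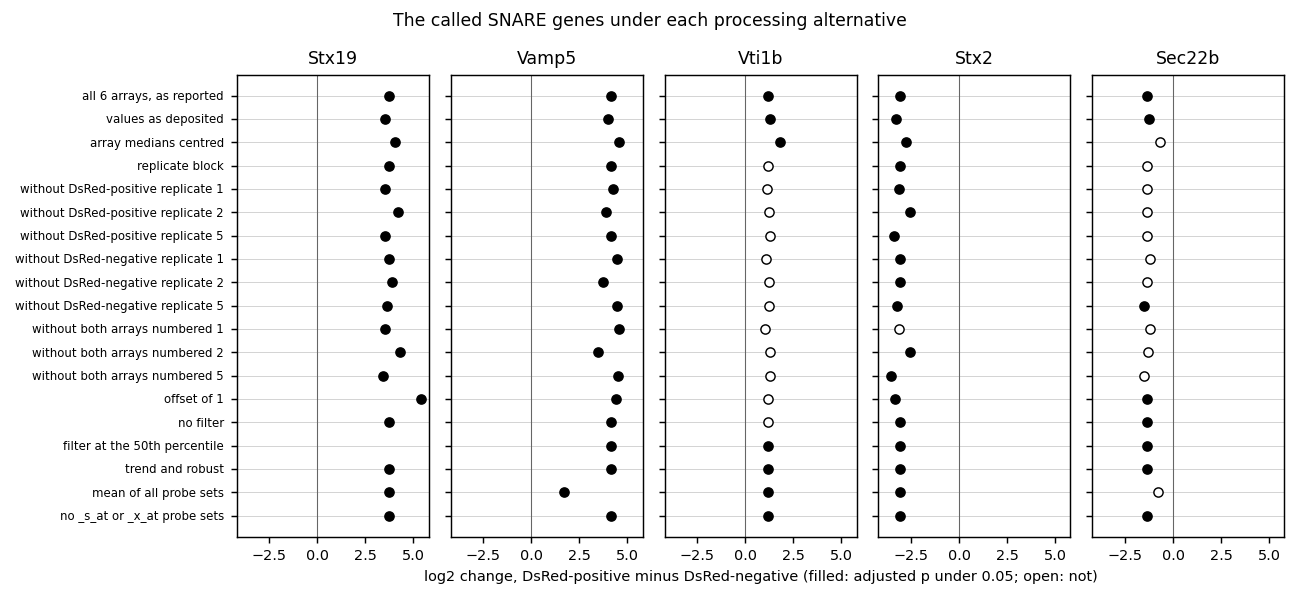
Change in log2 signal, DsRed-positive minus DsRed-negative, of the 5 called SNARE genes under each processing alternative, filled where the adjusted p was under 0.05 and open where it was not. Vamp5 is filled throughout, Stx19 wherever it was tested and Stx2 in all but the fit without both arrays numbered 1, while Vti1b and Sec22b are open in most.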

How the data were processed

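The deposited values were probe set intensities, 1 column for each of 6 arrays, for which GCOS is named, per the submitters' processing notes. All arrays had the same mean signal after trimming 2% at each end, so they had been scaled before deposit. Before log2 and quantile normalization each value was raised by 39.84, which is where the 20th percentile of the table lies. After 64 control probe sets were left out, 30175 of 45101 probe sets whose mean exceeded a 33rd-percentile cut-off entered limma 3.58.1 in R 4.3.3 (lmFit, eBayes, Benjamini-Hochberg over all tested probe sets or genes), checked on simulated data. GEO's platform annotation, with symbols updated through RefSeq, gave 1 gene to 34945 probe sets, several to 932 and none to 9160. A gene is read from its brightest single-gene probe set over the 6 arrays. An exact permutation test of 3 against 3 arrays cannot go below 0.1. The number of arrays limits the precision.

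Members, lists and alternatives were chosen with earlier results of these data known. All 34 members are named, and of each partner list up to 4 called genes with the smallest p. The labels do not say what the numbers 1, 2 and 5 mark, so the numbers were not taken as pairs. Deviations of same-numbered arrays correlated at 0.145, 0.0372 and 0.0534, and those of arrays with different numbers at -0.078 to 0.014. Alternatives covered scaling, offset, filter, variance model, choice of probe set, a replicate block and arrays left out. Some listed marker genes are not reported here.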

Additional observations from a re-analysis of the deposited data

How the results depend on the processing

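Vamp5 kept its call in 18 of 18 alternatives, Stx19 in all 17 that tested it (not tested with the filter at the 50th percentile), Stx2 in 17, Sec22b in 7 and Vti1b in 6, and no member's called direction reversed. With arrays centred on their medians, 8 members rose and 1 fell, 2558 of all genes rose, and 16 partners rose. With the mean of all probe sets 8 of 31 members and 7 partners rose, where 1703 of 13484 genes did. The filter at the 50th percentile gave 7 partners higher, where 1399 of 11786 genes rose. With trend and robust estimation 4 of 32 members fell, where 1782 of 14222 genes did. Leaving out 1 array gave 2 to 3 members higher and 1 to 3 lower, 608 to 1276 of all genes higher and 1082 to 1478 lower, and 1 to 6 partners higher and 2 to 4 lower. Without both arrays numbered 1, 1 member fell, 497 of all genes rose and 783 fell. Leaving out both arrays numbered 2, or both numbered 5, was chosen after seeing the data. It left 1 member lower each time, 678 and 525 of all genes higher, 910 lower without those numbered 5, and 2 and 1 partners higher. The cause of these shifts was not tested, except that fits without arrays hold fewer samples. With the number as a replicate block, 1067 of all genes rose and 1406 fell, Stx1a was called (-2.80, adjusted p = 0.0253) and Vti1b (adjusted p = 0.0847) and Sec22b (adjusted p = 0.0628) were not. The deviations of each array from its group mean correlated best with the array of its own number in the other group, a hint from the data and not the design.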
